A study of Caenorhabditis elegans with 6 samples.

Results

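The p38 MAP kinase immune pathway of Caenorhabditis elegans was followed in whole wild-type worms through 6 genes: tir-1, nsy-1, sek-1, pmk-1, atf-7 and vhp-1. They were taken by symbol from the deposited gene and transcript tables, and make up 6 of the 47656 genes and 23 of the 57163 transcripts listed. Poly(A) RNA was sequenced from 3 libraries of animals given ilimaquinone and 3 libraries of animals given the vehicle medium alone. Ilimaquinone is a sesquiterpenoid quinone from marine sponges and was given at 100 µM. All animals were wild type, entered treatment at the L4 stage, the last larval stage, and stayed in complete S-basal medium for 11 days at 20 °C. Both groups also received 200 µM FUDR, which blocks DNA synthesis and so prevents offspring from mixing with the ageing adults, and 100 µg/mL ampicillin, an antibiotic. Whether the 3 libraries of a group were separate cultures is not stated in the labels. Tests therefore weigh differences against the spread between libraries, which may be technical.

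The pathway is a chain of kinases that worms use against bacteria and other stresses, and it acts mainly in the intestine, the epidermis and the nervous system. TIR-1 is the adaptor at its head, the worm relative of SARM1, which has a TIR domain that cleaves NAD+. It switches on the MAP kinase kinase kinase NSY-1, which phosphorylates the MAP kinase kinase SEK-1, which phosphorylates the p38 kinase PMK-1. PMK-1 phosphorylates ATF-7, a bZIP transcription factor that otherwise holds immune genes down, and VHP-1 is a phosphatase that removes phosphate from PMK-1 and the related kinase KGB-1. Because the chain signals by phosphorylation, transcript levels of its members do not measure its activity. Genes whose transcription needs PMK-1 are the usual transcript readout.

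The ilimaquinone libraries held 39244786, 32155192 and 36949358 estimated counts, and the vehicle libraries held 32284669, 34206575 and 32656803. All 6 genes passed the filter on low counts. One control library, vehicle replicate 1, lay far from the rest. On the main axis of a principal component analysis, with 57.6% of the variance, the ilimaquinone libraries lay between -54.1 and -25.1, against 98.8 for vehicle replicate 1 and -0.13 and 26.5 for the other vehicle libraries. Markers of oocytes and germline, 15 genes, summed to 377 to 502 CPM with ilimaquinone, against 1897 CPM in vehicle replicate 1 and 538 and 627 CPM in the other vehicle libraries. Sperm markers, 12 genes, summed to 11.4 to 20.6 CPM with ilimaquinone, against 92.5 CPM in vehicle replicate 1 and 23.8 and 32.6 CPM in the others. All 15 germline and all 11 sperm markers tested had a negative log2 fold change. By edgeR, 11 germline and 8 sperm markers were lower at an unadjusted p of 0.05, against 11.8% of all genes. edgeR called 0 germline markers and 1 sperm marker, spe-38 (-2.58, adjusted p of 0.0468), against 0.327% of genes called lower. DESeq2 called 7 germline and 5 sperm markers lower, in a fit that called 3.3% of 27221 genes lower. Median log2 fold changes by edgeR were -1.55 for germline and -1.58 for sperm markers, and -0.58 and -0.88 without vehicle replicate 1. The ilimaquinone libraries held 8, 14 and 15 counts of spe-38. The number of sperm markers called was 0 with no filter on low counts, with scaling by library size alone and with limma on log2(TPM + 1). By edgeR it was also 0 with each library but vehicle replicate 1 left out in turn, and 2 without vehicle replicate 1. Neuron markers, 12 genes, summed to 2568 to 2805 CPM with ilimaquinone, against 1642 CPM in vehicle replicate 1 and 2745 and 2649 CPM in the others. None of the listed marker genes was at 0 in all libraries. CPM here are counts scaled to library size with TMM factors, and values are mean ± SD with 3 libraries per group.

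None of the 6 cascade genes was called by edgeR's quasi-likelihood test at an adjusted p of 0.05, in a comparison that called 1.47% of the 16506 genes tested. At an unadjusted p under 0.05, 1 of the 6 passed, against 21.9% of all genes. That gene was tir-1, which was lower in every ilimaquinone library than in any vehicle library. DESeq2 called it and no other member. That fit dropped only genes without counts, and called 6.54% of 27221 genes, 3.3% lower and 3.24% higher. Shares given for DESeq2 below are of this larger set, which holds more genes of low count than the 16506. The median log2 fold change of the 6 genes was 0.05, against -0.02 over all genes. Because the RNA came from whole animals, fewer cells of a type and less RNA per cell cannot be told apart.

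**Figure D1:**
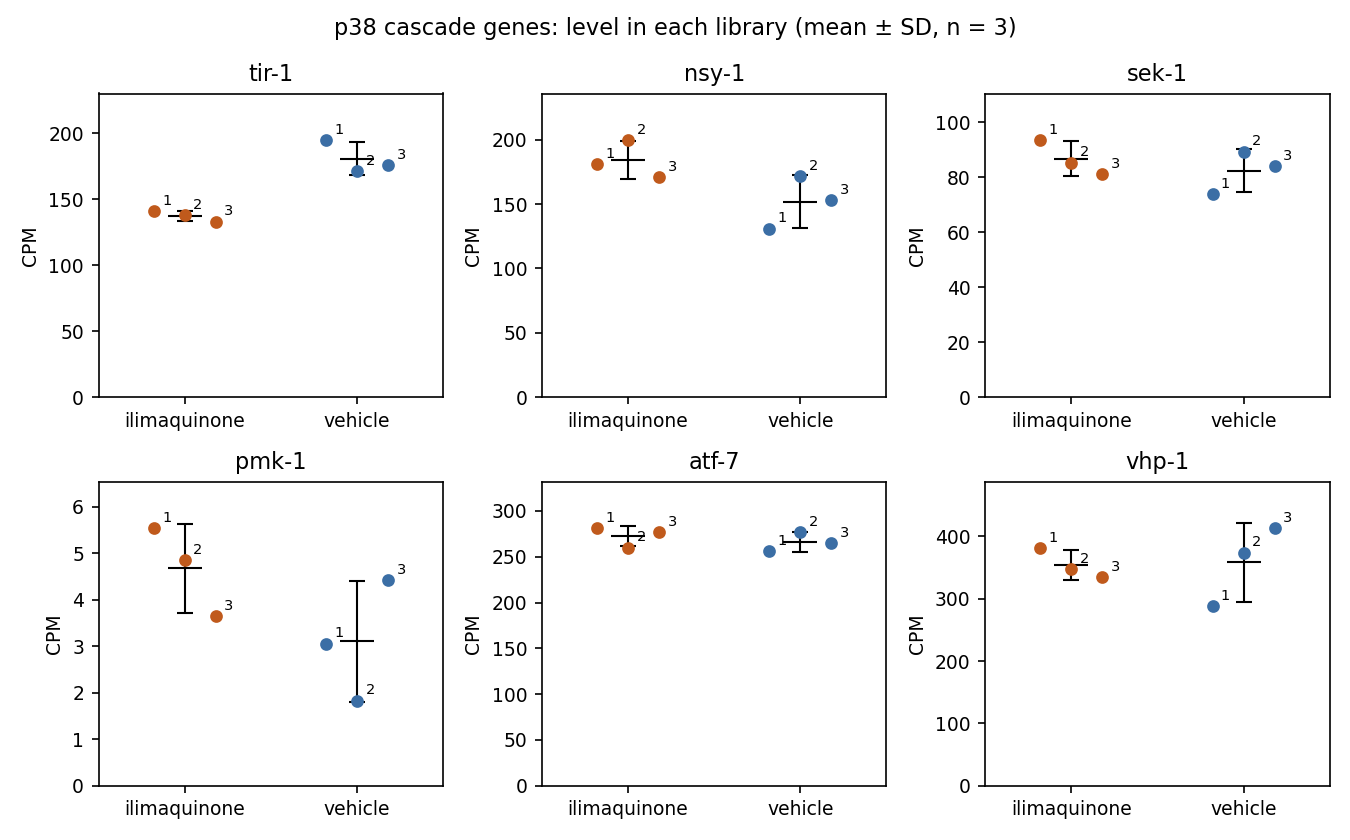
Level of each of the 6 cascade genes in CPM (vertical axes, one panel per gene, each from 0) in the ilimaquinone and vehicle libraries, with points for libraries and bars for mean and SD. The tir-1 points of the 2 groups do not overlap, while those of the other 5 genes do.

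The adaptor gene tir-1 (gene 175502) lies on the minus strand of chromosome III, positions 3869590 to 3901642 on build WBcel235. It was measured at 141, 138 and 133 CPM in the ilimaquinone libraries, against 195, 171 and 176 CPM in the vehicle libraries. The 2 groups did not overlap, and vehicle replicate 1 was the highest of the 6. Groups that do not overlap were found for 30.8% of all genes tested, 15% lower and 15.8% higher with ilimaquinone. Means were 137 ± 4.30 CPM with ilimaquinone and 180 ± 12.6 CPM with vehicle, a log2 fold change of -0.39 ± 0.09 (SE, 95% interval -0.60 to -0.18). The difference missed the threshold of edgeR's quasi-likelihood test, with an adjusted p of 0.092. With DESeq2 the log2 fold change was -0.38, with an adjusted p of 0.0194.

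As the deposited counts divide tir-1 among its 8 transcripts, the difference sat mostly in 1 of them. NM_065384, the short transcript at the 3′ end of the locus (chromosome III, 3869591 to 3873511), has 4 exons and a length of 2368 bases. It held 86.1, 82.2 and 72.3 CPM with ilimaquinone, against 141, 115 and 117 CPM with vehicle. The groups were again separate, and vehicle replicate 1 was again the highest. The log2 fold change was -0.63 ± 0.13, with an adjusted p of 0.135 by edgeR over 22238 transcripts, of which 0.292% were called, 0.0585% lower. With DESeq2 it was -0.62, with an adjusted p of 0.0106. Counts of the other tir-1 transcripts, summed, came to 55.3, 56.0 and 60.5 CPM with ilimaquinone, against 54.3, 56.0 and 58.5 CPM with vehicle. These groups overlapped, with a log2 fold change of 0.03 ± 0.09 (95% interval -0.18 to 0.23) and an adjusted p of 0.88 by edgeR. This sum was added after the values were seen.

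**Figure D2:**
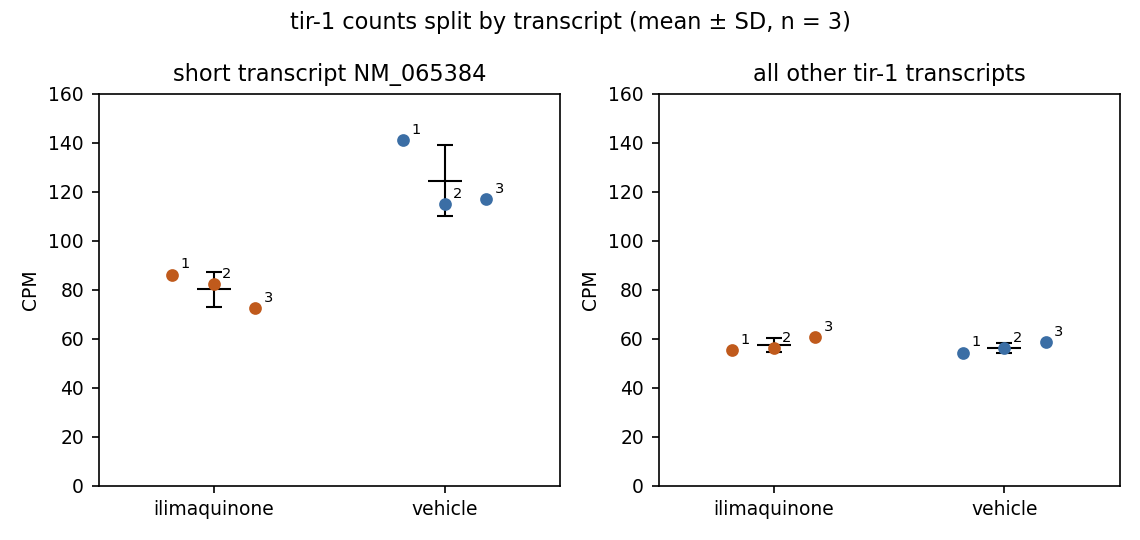
Counts of tir-1 in CPM (vertical axis) divided into the short transcript NM_065384 and the sum of the other tir-1 transcripts, by library, with mean and SD. The short transcript averaged 80.2 CPM with ilimaquinone and 124 CPM with vehicle, and the others 57.3 CPM with ilimaquinone and 56.3 CPM with vehicle.

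Per length, the short transcript made up most of tir-1. Its share of the gene's TPM was 69.7, 68.6 and 64.7% with ilimaquinone, against 79.6, 76.1 and 73.6% with vehicle, a difference of -8.75 percentage points. The 2-sided exact permutation test of that share gave p = 0.1, the smallest that 3 against 3 libraries allow, and 0.9 after adjustment over the 9 shares tested. Other tir-1 transcripts were unsteady between replicates of a group: NM_065383 held 384, 213 and 497 counts with ilimaquinone, against 57, 745 and 27 with vehicle. How the authors divided counts among transcripts that share exons is not given in the sources used. The deposited span of rpl-3, a ribosomal protein gene on the opposite strand (chromosome III, 3867848 to 3874377), covers the whole of the short transcript. It averaged 166319 counts a library, and whether counting used strand is not stated, so reads of the pair cannot be told apart here. With ilimaquinone rpl-3 was at 4970, 4740 and 5040 CPM, against 4300, 5310 and 4470 CPM with vehicle, with a log2 fold change of 0.07 ± 0.12 and overlapping groups. In Ensembl release 115, rpl-3 ends before tir-1 begins.

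The kinase genes nsy-1 and sek-1 did not pass the test. For nsy-1 (gene 24104671, chromosome II, 5022757 to 5029999, plus strand) the ilimaquinone libraries held 181, 200 and 171 CPM, against 131, 172 and 153 CPM with vehicle. The groups overlapped by 1 vehicle library, and vehicle replicate 1 was the lowest of the 6. The log2 fold change was 0.27 ± 0.12 (95% interval -0.02 to 0.57), with an adjusted p of 0.249 by edgeR. For sek-1 (gene 181043, chromosome X, 7816734 to 7821045, plus strand) the ilimaquinone libraries held 93.6, 85.3 and 81.2 CPM, against 73.9, 89.3 and 84.0 CPM with vehicle. The groups overlapped, and the log2 fold change was 0.07 ± 0.11 (95% interval -0.18 to 0.33, adjusted p of 0.702 by edgeR). Each of these intervals leaves out a doubling or halving, a log2 change of 1 in size. One nsy-1 transcript, NM_001383826, made up 90.5 ± 1.74% of the gene's TPM with ilimaquinone and 90.3 ± 1.46% with vehicle. The deposited table gives sek-1 and pmk-1 a single transcript each.

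The p38 kinase gene pmk-1 was by far the least counted of the 6. Its counts (gene 191743, chromosome IV, 8148794 to 8151278, plus strand) were 214, 157 and 133 with ilimaquinone, against 107, 62 and 138 with vehicle. In CPM this was 5.54, 4.86 and 3.65 with ilimaquinone, against 3.06, 1.83 and 4.43 with vehicle. The groups overlapped, since vehicle replicate 3 lay above ilimaquinone replicate 3. The log2 fold change of 0.59 ± 0.35 had a 95% interval of -0.24 to 1.42 and an adjusted p of 0.349 by edgeR, so neither no difference nor a doubling lies outside it. Leaving out each library in turn gave 0.31 to 0.92.

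The count of pmk-1 cannot be read as its level here. Its neighbour faah-2 (gene 177612), named for fatty acid amide hydrolase, is deposited on the same strand at chromosome IV, 8148788 to 8154861. That span covers all 2485 bases of pmk-1, whereas the Ensembl release 115 model of faah-2 starts 3657 bases further on. The deposited faah-2 transcript is 4781 bases long, against 1922 bases of exon in Ensembl. In the files faah-2 held 9675, 7858 and 8986 counts with ilimaquinone, against 7194, 5323 and 5064 with vehicle. Of the counts of both genes, pmk-1 took 2.16, 1.96 and 1.46% with ilimaquinone, against 1.47, 1.15 and 2.65% with vehicle. How many of the faah-2 counts came from pmk-1 exons cannot be worked out from counts per gene.

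**Figure D3:**
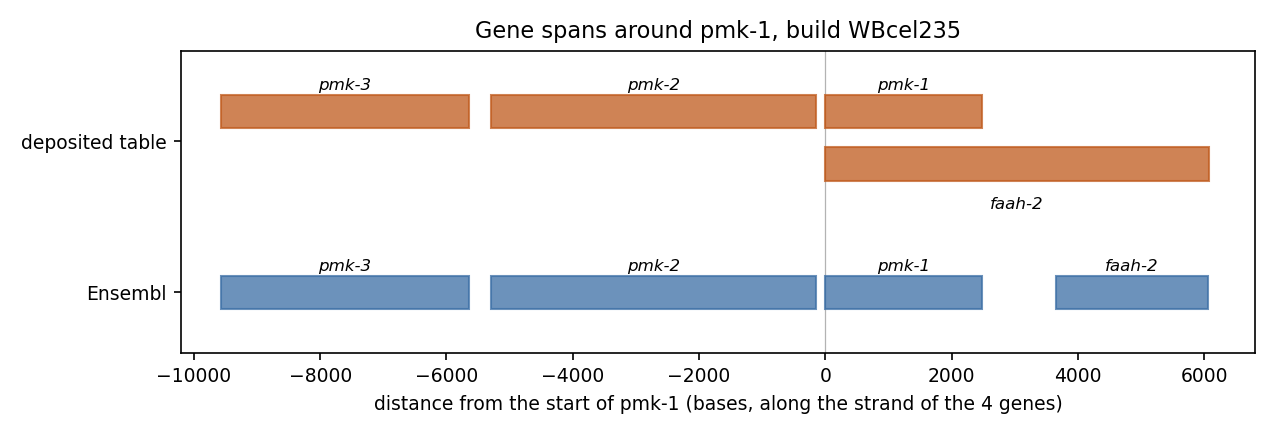
Map of the pmk-3, pmk-2, pmk-1 and faah-2 spans by distance in bases from the start of pmk-1 (horizontal axis), along their strand, in the deposited table (upper rows) and in Ensembl (lower row). The deposited faah-2 span covers the whole of pmk-1, and the Ensembl span starts 3657 bases further on.

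Summed, pmk-1 and faah-2 came to 256, 248 and 250 CPM with ilimaquinone, against 209, 159 and 167 CPM with vehicle. The groups were separate, and the sum averaged 251 ± 4.31 CPM with ilimaquinone and 178 ± 26.7 CPM with vehicle. The log2 fold change was 0.49 ± 0.12 (95% interval 0.21 to 0.78), with an adjusted p of 0.108 by edgeR. This sum, too, was added after the values were seen. For faah-2 alone the log2 fold change was 0.49 ± 0.12, with an adjusted p of 0.11 by edgeR, 0.025 by DESeq2 and, with each library left out in turn, 0.0107 (without vehicle replicate 1) to 0.344 by edgeR.

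Other p38 kinases of the worm are PMK-2 and PMK-3, whose genes lie just before pmk-1 on the same strand in one operon. PMK-2 acts with PMK-1, mostly in neurons, and PMK-3 works in axon repair. The gene pmk-2 (gene 177611, chromosome IV, 8143500 to 8148648) was at 23.2, 23.3 and 22.1 CPM with ilimaquinone, against 15.3, 20.7 and 20.1 CPM with vehicle. The groups did not overlap, and the log2 fold change was 0.29 ± 0.15, with an adjusted p of 0.287 by edgeR. The gene pmk-3 (gene 177610, chromosome IV, 8139220 to 8143146) was at 48.6, 51.4 and 50.1 CPM with ilimaquinone, against 38.8, 47.4 and 53.4 CPM with vehicle, with overlapping groups and an adjusted p of 0.657 by edgeR.

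At the end of the chain, the transcription factor gene atf-7 (gene 175587) is deposited on the minus strand of chromosome III from 4491627 to 4508113. It held 281, 260 and 277 CPM with ilimaquinone, against 256, 277 and 265 CPM with vehicle. The groups overlapped almost wholly. Of the 6 genes atf-7 had the narrowest 95% interval, -0.16 to 0.23 around a log2 fold change of 0.04 ± 0.08 (adjusted p of 0.813 by edgeR). Its transcript NM_001384076 made up 54.7 ± 3.85% of the TPM with ilimaquinone and 53.9 ± 1.08% with vehicle. NM_065513 made up 36.8 ± 3.75% with ilimaquinone and 35.2 ± 2.34% with vehicle. One minor transcript, NM_001384077, was apart from the others: 7.88, 10.9 and 9.07 CPM with ilimaquinone, against 16.8, 14.5 and 12.6 CPM with vehicle. Its groups did not overlap, and its log2 fold change of -0.66 ± 0.20 had an adjusted p of 0.247 by edgeR. It is also the transcript that reaches 9068 bases past the Ensembl end of atf-7, across the chaperonin subunit gene cct-5, which lies on the same strand and averaged 22232 counts. The deposited cct-5 span starts at 4493272. It therefore also overlaps the other atf-7 transcripts, which reach to 4494450 (NM_001384076) or 4499043 (NM_065512 and NM_065513).

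The deposited atf-7 span is also overlapped, by 2578 bases on the opposite strand, by cpg-1, which encodes an eggshell proteoglycan. With ilimaquinone cpg-1 was at 48.5, 39.7 and 58.3 CPM, against 349, 77.6 and 91.0 CPM with vehicle, highest in the library where germline markers were highest. The part of these neighbours in the atf-7 counts was not tested.

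The phosphatase gene vhp-1 (gene 173904, chromosome II, 5323276 to 5340829, plus strand) held 381, 347 and 335 CPM with ilimaquinone, against 288, 374 and 413 CPM with vehicle. The ilimaquinone libraries all lay within the vehicle range. A log2 fold change of -0.02 ± 0.14 (95% interval -0.36 to 0.33) had an adjusted p of 0.954 by edgeR. Its transcripts moved between replicates of one group far more than the gene did. NM_001377798 made up 14.5, 40.5 and 9.32% of the vhp-1 TPM with ilimaquinone, against 28, 13.4 and 35.7% with vehicle. The noncoding transcript NR_151559 was steadier, at 29.8 ± 3.01% with ilimaquinone and 26.7 ± 1.53% with vehicle (exact permutation p = 0.2).

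Of the 23 transcripts, 20 were abundant enough to test, and edgeR called none of them. At an unadjusted p under 0.05, 2 passed, NM_065384 of tir-1 and NM_001384077 of atf-7, against 15.6% of all transcripts. DESeq2 called 1, NM_065384, as lower, in a fit that called 3.94% of 35800 transcripts, 1.68% lower. The same 2 were the only tested cascade transcripts whose groups did not overlap, against 25.4% of all transcripts.

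Per length, the members of the cascade differed widely in level. By mean deposited TPM over the 6 libraries the order was vhp-1 at 202 TPM (range 179 to 220), atf-7 at 149 (135 to 157), tir-1 at 73.4 (58.1 to 102), sek-1 at 50.6 (46.3 to 55.8), nsy-1 at 41.2 (34.5 to 50.1) and pmk-1 at 2.85 (1.29 to 4.04). The ranges of sek-1 and nsy-1 overlapped, and those of the other neighbours in the order did not. Among all genes tested, vhp-1 stood at the 96.2th percentile of TPM and pmk-1 at the 27.7th. The pmk-1 value carries the doubt about faah-2, that of tir-1 the doubt about rpl-3, and that of atf-7 the doubt about cct-5 and cpg-1. The neighbouring pmk-2 averaged 16.8 TPM and pmk-3 32.9 TPM. In the single library where germline markers were highest and neuron markers lowest, vehicle replicate 1, CPM values of nsy-1, sek-1, atf-7 and vhp-1 were the lowest of the 6 libraries and that of tir-1 the highest. The part of that library's makeup in the results was not tested. Without it the log2 fold change of tir-1 was -0.34, with an adjusted p of 0.0521 by edgeR, and with each library left out in turn that p ran from 0.0521 to 0.357.

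Of 15 genes that act upstream of the cascade or with it, edgeR called none. DESeq2 called 1 higher, fshr-1, against 3.24% of all genes. At an unadjusted p under 0.05, 4 passed, all higher, against 10.1% of all genes: fshr-1, tpa-1, unc-43 and skn-1. A positive log2 fold change was found for 13 of the 15, against 48% of all genes, with a median of 0.11 and of 0.08 without vehicle replicate 1. Neuron markers were positive for 11 of 12, with a median of 0.26 and of 0.06 without vehicle replicate 1, and their part in the list's values was not tested. The receptor gene fshr-1, whose product acts in intestinal immunity beside PMK-1, was at 51.0, 56.3 and 49.6 CPM with ilimaquinone, against 42.6, 40.8 and 35.5 CPM with vehicle. The groups did not overlap, and the log2 fold change was 0.40 ± 0.11, with an adjusted p of 0.133 by edgeR, 0.0348 by DESeq2 and up to 0.432 over the other alternatives. For tpa-1, a protein kinase C that acts above the cascade in the intestine, the libraries held 106, 110 and 101 CPM with ilimaquinone, against 70.3, 96.0 and 86.9 CPM with vehicle. For unc-43, the CaM kinase II that acts above TIR-1 in neurons, the means were 234 ± 4.37 CPM with ilimaquinone and 189 ± 23.2 CPM with vehicle. For skn-1, the Nrf-family factor that PMK-1 phosphorylates, they were 440 ± 12.3 CPM with ilimaquinone and 357 ± 42.1 CPM with vehicle. All 4, picked by their unadjusted p, were lower in every vehicle library than in any ilimaquinone library, as were 15.8% of all genes. So was olrn-1, and the groups of the other genes of this list overlapped. The gene nipi-3, which encodes a Tribbles-like protein of the epidermal response, averaged 367 ± 20.6 CPM with ilimaquinone and 340 ± 82.3 CPM with vehicle, and the groups overlapped.

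The parallel MAP kinase modules gave the same picture of no calls. The 4 lists of other p38 kinases, the DLK-1 module, the JNK and KGB-1 modules and the ERK module held 26 genes, and edgeR called 0 of them, while 3 passed an unadjusted p of 0.05, all higher, against 10.1% of all genes. DESeq2 called 1, ksr-1, against 3.24% of all genes called higher. Of the 26, 19 had a positive log2 fold change, against 48% of all genes, with a median of 0.14. Without vehicle replicate 1 the median was 0.07, in place of 0.20, for the other p38 kinases, 0.05, in place of 0.14, for the DLK-1 module and 0.05, in place of 0.20, for the JNK and KGB-1 modules. For the ERK module it was 0.04, in place of 0.03. In the DLK-1 module, which repairs axons, mkk-4 had the smallest p, at 38.7 ± 0.778 CPM with ilimaquinone and 31.6 ± 5.22 CPM with vehicle (adjusted p of 0.269). Among the JNK and KGB-1 genes, a module on which VHP-1 also acts, kgb-2 had it, at 21.7 ± 0.508 CPM with ilimaquinone and 16.3 ± 2.96 CPM with vehicle (adjusted p of 0.196). In the ERK module the scaffold gene ksr-1 was at 43.6, 41.6 and 41.2 CPM with ilimaquinone, against 23.6, 27.4 and 30.6 CPM with vehicle. Its groups were well apart, and its log2 fold change was 0.63 ± 0.12, with an adjusted p of 0.0707 by edgeR, 0.0349 by edgeR without vehicle replicate 1, 0.0499 by limma and 7.76e-04 by DESeq2, and up to 0.3 over the other alternatives.

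**Figure D4:**
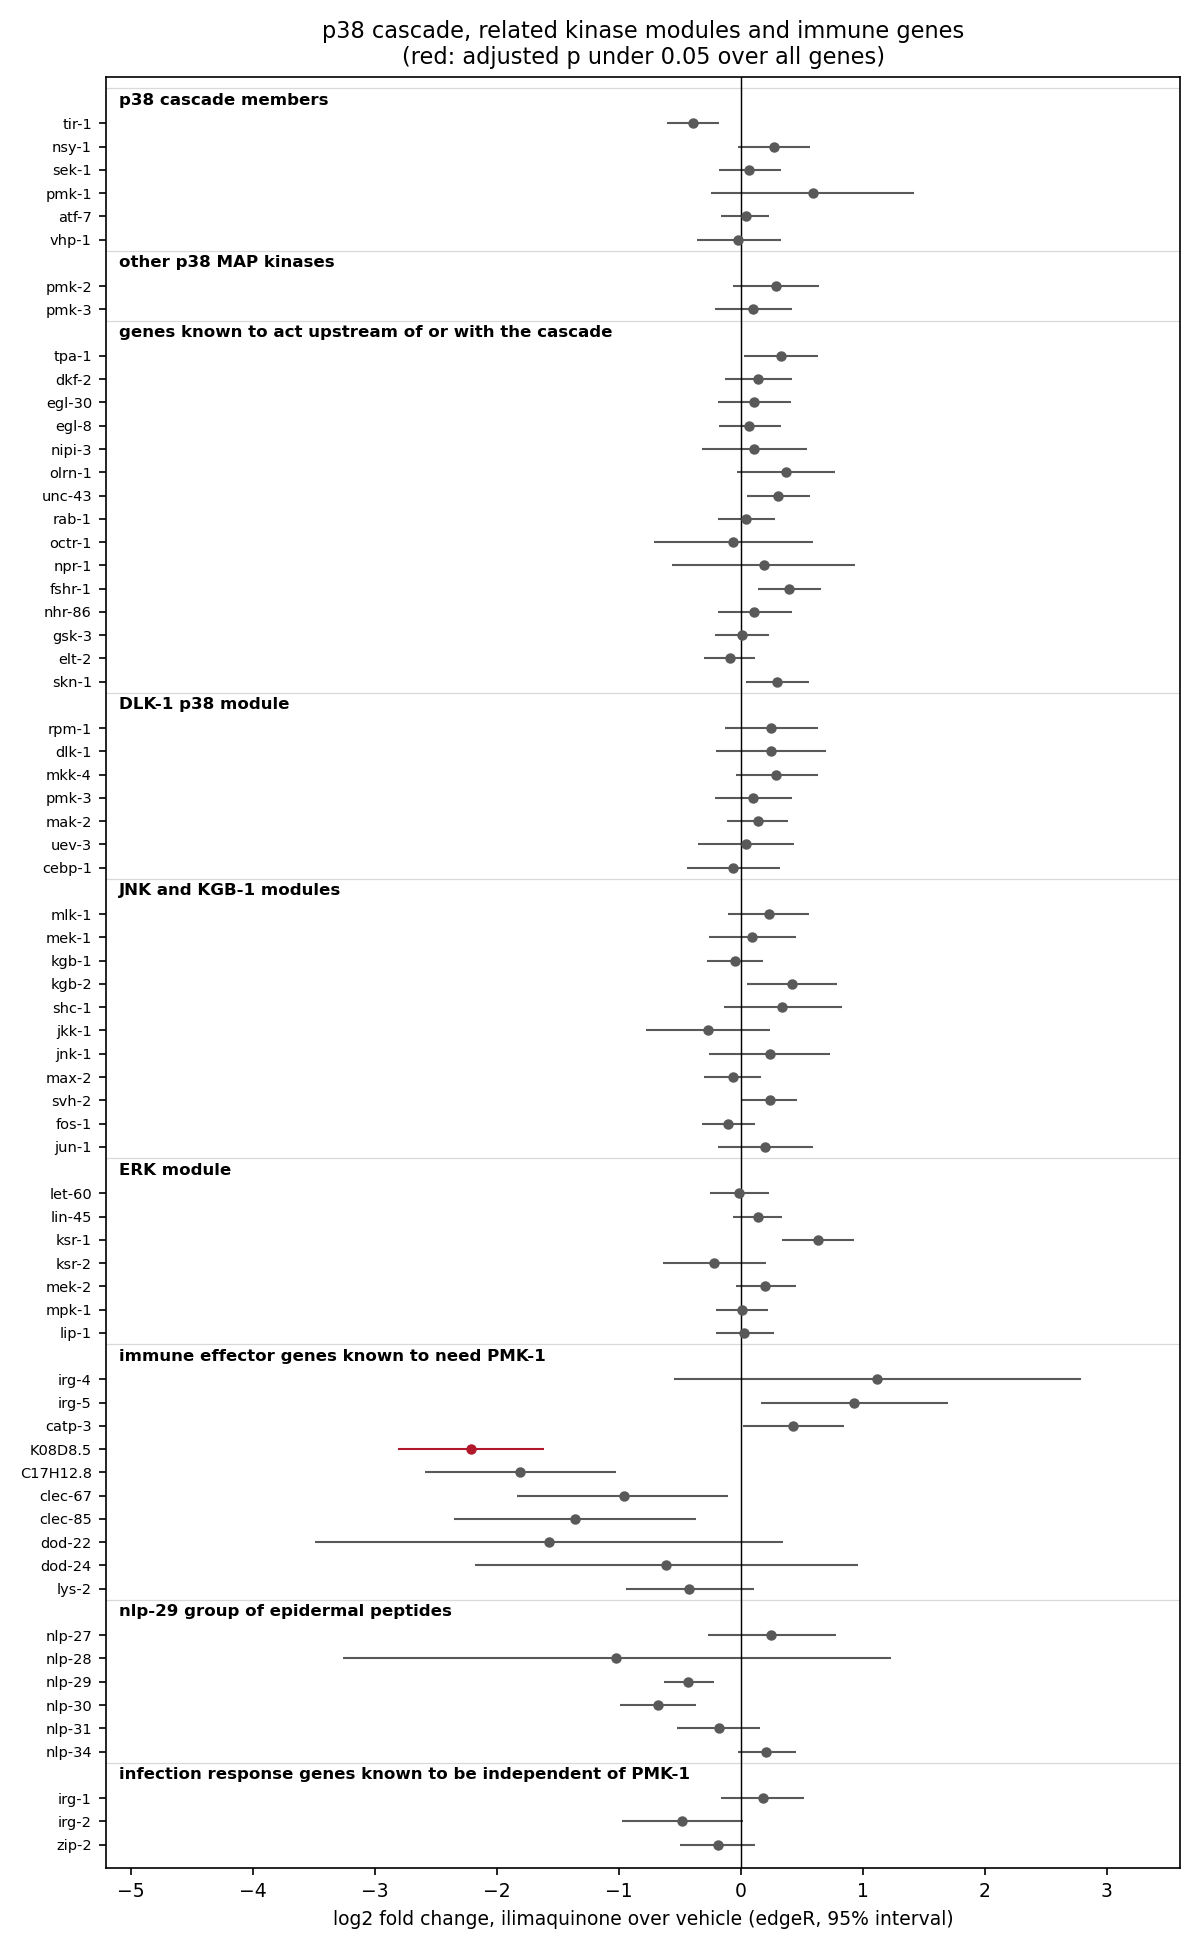
Log2 fold change, ilimaquinone over vehicle (horizontal axis), of the cascade genes and of every tested gene of the pathway lists (rows, grouped by list), with bars for 95% intervals and red for an adjusted p under 0.05 by edgeR. K08D8.5, at -2.21, is the single red point, and the intervals of nsy-1, sek-1, pmk-1, atf-7 and vhp-1 span 0.

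Immune effector genes known to need PMK-1 were mixed, and 1 of them fell. Of 11 listed, 10 were abundant enough to test, 7 with a negative and 3 with a positive log2 fold change, and the median was -0.79. edgeR called 1 lower and 0 higher, in a comparison that called 0.327% of genes lower and 1.14% higher. At an unadjusted p under 0.05, 4 were lower and 2 higher, against 11.8% and 10.1% of all genes. The range of the list's median over the alternatives was -1.09, without vehicle replicate 1, to -0.42, with limma on log2(TPM + 1). DESeq2 called 3 lower, K08D8.5, C17H12.8 and clec-85, in a fit that called 3.3% of genes lower. Without vehicle replicate 1, edgeR again called 1 lower and 0 higher. That fit called 274 of 16817 genes lower and 451 higher.

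The gene that fell was K08D8.5, whose product has a CUB-like domain in the deposited description, a domain common among secreted proteins of the worm's infection response. It was at 2.41, 3.09 and 2.71 CPM with ilimaquinone, against 11.6, 16.7 and 9.64 CPM with vehicle, from 93, 100 and 99 counts with ilimaquinone and 407, 565 and 300 with vehicle. Every ilimaquinone library lay far below every vehicle library. The log2 fold change was -2.21 ± 0.25 (95% interval -2.81 to -1.61), with an adjusted p of 0.0171 by edgeR. The call did not hold without ilimaquinone replicate 1, 2 or 3 (adjusted p of 0.141, 0.113 and 0.146 by edgeR), though the log2 fold change stayed between -2.30 and -2.12. Over all genes those fits called 0, 1 and 0 lower, against 54 with all libraries.

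C17H12.8, which also has a CUB-like domain in the deposited description, was at 52.6, 84.4 and 57.2 CPM with ilimaquinone, against 238, 308 and 133 CPM with vehicle. The groups did not overlap, but the vehicle libraries spread widely. Its log2 fold change was -1.81 ± 0.33, with an adjusted p of 0.0563 by edgeR, 2.63e-06 by DESeq2 and, with each library left out in turn, 0.0341 (without vehicle replicate 3) to 0.254 by edgeR. The C-type lectin genes clec-67 and clec-85 had log2 fold changes of -0.96 ± 0.37 and -1.36 ± 0.42 and separate groups, with adjusted p of 0.2 and 0.157 by edgeR. For clec-85 DESeq2 gave 0.0306, and the other alternatives up to 0.399. The clec-67 value was -0.47 without vehicle replicate 2, whose 70.6 CPM stood above 30.8 and 31 CPM in the other vehicle libraries.

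On the other side stood irg-5, again with a CUB-like domain, and catp-3, a P-type ATPase gene listed as C09H5.2 and matched through that name. The gene irg-5 was at 8.26, 7.08 and 10.1 CPM with ilimaquinone, against 2.58, 5.88 and 4.85 CPM with vehicle. Its groups did not overlap, and the log2 fold change was 0.93 ± 0.32, with an adjusted p of 0.18 by edgeR. For catp-3 the libraries held 339, 284 and 364 CPM with ilimaquinone, against 282, 262 and 186 CPM with vehicle, also without overlap (log2 fold change 0.43 ± 0.18, adjusted p of 0.217). The effectors irg-4, dod-22, dod-24 and lys-2 had overlapping groups. The 11th, sysm-1, was too low to test, at 0, 0 and 4 counts with ilimaquinone, against 7, 2 and 0 with vehicle. Since many of these genes are expressed in the intestine, 11 intestine markers were set beside them. The markers summed to 3190, 3303 and 2995 CPM with ilimaquinone, against 3003, 3818 and 3172 CPM with vehicle, with overlapping groups. The largest part of each sum was asp-1, at 1110 to 2020 CPM. Of the 11 markers, 3 had a positive log2 fold change, against 48% of all genes, and 8 a negative one, with a median of -0.14. edgeR and DESeq2 called 0 of them. At an unadjusted p of 0.05 by edgeR 1 was higher and 1 lower, against 10.1% and 11.8% of all genes.

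**Figure D5:**
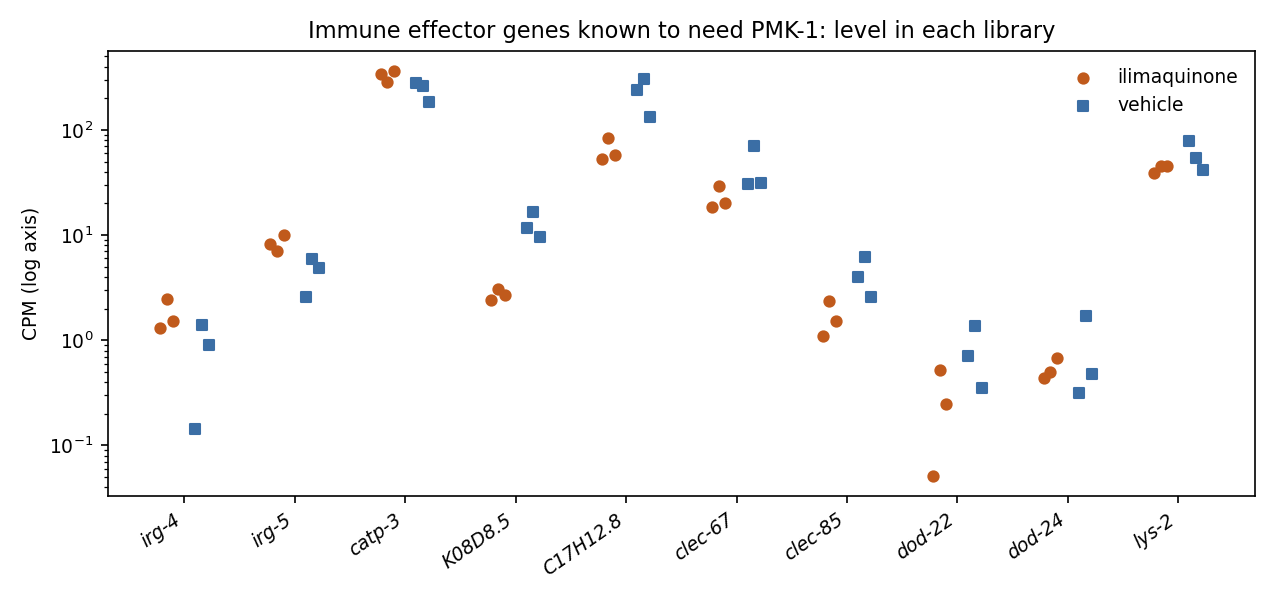
Level in CPM (vertical axis, log scale) of the 10 tested immune effector genes known to need PMK-1, with circles for ilimaquinone libraries and squares for vehicle libraries. K08D8.5 averaged 2.74 CPM with ilimaquinone and 12.7 CPM with vehicle, and irg-5 averaged 8.48 CPM with ilimaquinone and 4.44 CPM with vehicle.

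The nlp-29 group encodes antimicrobial peptides of the epidermis, which respond to fungal infection and wounding through TIR-1, SEK-1 and PMK-1. None of the 6 genes was called by edgeR, and 2 passed an unadjusted p of 0.05, both lower, against 11.8% of all genes. The gene nlp-30 was at 27.6, 30.6 and 28.9 CPM with ilimaquinone, against 47.9, 52.5 and 39.5 CPM with vehicle. The gene nlp-29 was at 109, 109 and 100 CPM with ilimaquinone, against 134, 150 and 144 CPM with vehicle. The groups were separate for both, with log2 fold changes of -0.68 ± 0.13 and -0.43 ± 0.09 and adjusted p of 0.0649 and 0.0762 by edgeR. Without vehicle replicate 1, both passed (0.0445 and 0.024), as they did with DESeq2 (7.11e-04 and 0.00195). Over all alternatives the adjusted p reached 0.295 for nlp-30 and 0.313 for nlp-29, each with a library left out. On the positive side, nlp-27 and nlp-34 had log2 fold changes of 0.25 ± 0.22 and 0.21 ± 0.10. The 12 epidermis markers summed to 535, 551 and 576 CPM with ilimaquinone, against 486, 524 and 442 CPM with vehicle, without overlap. They went both ways, 8 positive and 4 negative, from 1.48 for rol-6 to -2.10 for col-19. edgeR called 0 of them, with 2 higher and 1 lower at an unadjusted p of 0.05, against 10.1% and 11.8% of all genes. DESeq2 called 1 higher, against 3.24% of all genes. The part of these markers in the peptide values was not tested.

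Infection response genes that do not need PMK-1 were set beside these. Of irg-1, irg-2 and zip-2, edgeR and DESeq2 called 0, and by edgeR 0 passed an unadjusted p of 0.05. The smallest p was that of irg-2, at 16.3 ± 1.37 CPM with ilimaquinone and 22.6 ± 5.70 CPM with vehicle, a log2 fold change of -0.48 ± 0.21 (adjusted p of 0.237). The bZIP factor gene zip-2, which drives irg-1, averaged 965 ± 42.5 CPM with ilimaquinone and 1100 ± 171 CPM with vehicle.

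For each member, the 2 genes with the most similar course over the 6 libraries were found among 10359 genes of at least 5 CPM, by the root mean square difference of log2 CPM after centring each gene on its own mean. They were pcp-1 (0.029) and T19D12.1 (0.0453) for tir-1, acbp-1 (0.0205) and nhr-18 (0.0277) for nsy-1, and somi-1 (0.0278) and C32F10.4 (0.0313) for sek-1. For atf-7 they were dad-1 (0.0177) and spg-7 (0.0237), and for vhp-1 C07A12.7 (0.0259) and nekl-2 (0.0367). For pmk-1 they were kreg-1 (0.212) and T20F7.5 (0.236). The distances were largest for pmk-1, whose own spread about its mean on the same scale was also the largest (0.517, at few counts). For the other members that spread lay between 0.0506 for atf-7 and 0.205 for tir-1. Among these the distances did not follow the spread throughout, which was 0.193 for nsy-1 and 0.107 for sek-1.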

How the data were processed

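Sample titles gave the groups and replicate numbers. Per the labels' protocols, 1 µg of RNA went into each library, made with a strand-preserving mRNA kit. The submitters' processing notes name bcl2fastq 2.20.0, HISAT2 2.1.0, SAMtools 1.9 and build WBcel235. How reads were counted, whether strand was used, and which annotation release was taken are not given in the sources used. The authors deposited a count, an FPKM and a TPM per library for genes and for transcripts, per the file headers. The deposited counts were whole numbers and are treated as estimated counts, although design and test were planned for read counts. The deposited TPM were used for levels per length, isoform shares and 1 alternative, and the deposited FPKM were not used.

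Counts were fitted over all genes, and over all transcripts, in R 4.3.3 with edgeR 4.0.16 (filterByExpr, TMM, glmQLFit, glmQLFTest, no covariate, Benjamini-Hochberg threshold 0.05). The standard error is the log2 fold change over the square root of F. The biological coefficient of variation was 28.4% for genes and 45.2% for transcripts. The alternatives were DESeq2 1.42.0, other scalings and filters, the replicate number as a block, limma 3.58.1 on log2(TPM + 1), and each library left out. The edgeR fits were also run on counts simulated from their own dispersions with planted changes and no outlying library. No result given here rests on that run. Members and lists were chosen with earlier results of these data known. The text names the members, every called list gene or, in a list with no call, the one with the smallest p, and the 2 most alike genes per member. Other genes were named after their values were seen.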

Additional observations from a re-analysis of the deposited data

How the results depend on the processing

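Across the alternatives, 537 of 592 recomputed values of named genes and transcripts kept their direction and their side of the threshold. DESeq2 called 1 cascade gene lower, tir-1, and 1 cascade transcript lower, its short one, where edgeR called 0 of each. Over all genes DESeq2 called 883 higher and 897 lower of 27221, where edgeR called 188 and 54 of 16506. edgeR called 21 and 1 with the replicate block, 60 and 9 with no filter, 216 and 94 with the stricter filter, 126 and 43 with upper-quartile factors, and 11 to 451 and 0 to 274 with a library left out (most without vehicle replicate 1), while limma called 278 and 57. Replicate numbers did not pair the libraries (correlations of deviations -0.16, 0.29 and -0.16), and with the block K08D8.5 had an adjusted p of 0.0658 and 0 cascade genes were called. The sign turned for vhp-1 with limma (0.03), for tir-1 without its short transcript (0.03), for NM_001312937 with the block (0.98), and for NM_001384059 with DESeq2 (0.01) and the block (1.11); the cause was not tested. With a library left out, log2 fold changes ran from 0.00 to 0.12 for sek-1, -0.16 to 0.09 for vhp-1 and -1.0 to 0.42 for dod-24. Among transcripts they ran from -1.07 to 1.71 for NM_001312937, -0.42 to 0.16 for NM_001381812, -0.55 to 2.97 for NM_001384059, -0.23 to 3.0 for NM_065383, 0.00 to 0.14 for NM_076921, -0.01 to 0.11 for NM_001384076, -0.26 to 0.06 for NM_065512 and -0.01 to 0.18 for NM_065513. For vhp-1 transcripts they ran from -0.10 to 0.59 for NM_001356833, -2.97 to 2.37 for NM_001356834, -1.06 to 0.19 for NM_001377798, -4.16 to 2.78 for NM_001377799 and -0.21 to 0.54 for NM_062597.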
